A study of Mus musculus with 18 samples.

Results

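The genes described here carry the signal of G protein-coupled receptors that work through cyclic AMP (cAMP). They encode G protein subunits, adenylyl cyclases, the subunits of protein kinase A, cAMP phosphodiesterases, and CREB transcription factors with their CRTC coactivators. The Epac exchange factors, beta-arrestins and 3 RGS proteins complete the list. These genes were chosen by name, as 39 of the 21015 genes in the count table. All 39 were found and passed the filter on low counts. RNA came from tumours that grew from MC38-OVA, a mouse colon carcinoma line carrying the model antigen ovalbumin, in hosts listed at 10 weeks of age. Hosts were wild type (WT) or ADRA2A-/- (KO), and they received PBS (WT-Control, KO-Control), clonidine (WT-Clonidine, KO-Clonidine) or guanabenz (WT-Guanabenz, KO-Guanabenz) by daily intraperitoneal injection, with collection 7 days after treatment. Each of the 6 groups had 3 libraries. All groups share the same tumour line, which has its own genome, so in KO groups only host cells lack the receptor gene. The labels name neither the doses, nor the strain of the hosts, nor the disrupted stretch of Adra2a. A conflict affects 1 group: the 3 libraries titled KO-Guanabenz have "Untreated" as their treatment entry. The title was followed, and the conflict applies to every value given for that group. No label ties libraries to animals, so p-values measure the spread between libraries, which may in part be technical.

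Clonidine and guanabenz are agonists of alpha2-adrenergic receptors, which couple to inhibitory G proteins (Gi). An activated receptor releases Gi alpha from the beta and gamma subunits, and Gi alpha lowers the output of adenylyl cyclases, whereas Gs alpha, encoded by Gnas, raises it. cAMP then frees the catalytic subunits of protein kinase A from the regulatory subunits and activates Epac. The kinase phosphorylates CREB, phosphodiesterases degrade cAMP, RGS proteins speed the switching off of G alpha, and beta-arrestins uncouple the receptor. In leukocytes, cAMP is known mainly as a restraint on activation.

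Levels are CPM, counts scaled to a common library size after TMM scaling, and library totals ran from 54.7 to 491.1 (in units of 1000000 counts). Adra2a itself, the disrupted gene, was scarce. WT libraries (9) spanned 0.286 to 0.589 CPM, whereas KO libraries (9) spanned 0.0917 to 0.293 CPM, with a small overlap. Over all treatments its difference was -1.22 on the log2 scale (SE 0.20, adjusted p = 0.0163, edgeR's quasi-likelihood test), a call that was lost without the KO-Guanabenz libraries (-0.99, adjusted p = 0.0907) and without KO-Guanabenz 1 (-1.16, adjusted p = 0.0527), while DESeq2 gave it no adjusted p. The tumours held leukocytes, with 6 markers summing to 923 to 1146 CPM and 10 macrophage markers to 3685 to 4631 CPM. The 6 fibroblast markers summed to 11660 to 20870 CPM, and which cells made this RNA was not tested. Epithelial markers (Epcam, Krt8, Krt18, Krt19 and Cdh1) summed to only 3.69 to 12.8 CPM, although the line is a carcinoma. Y-linked transcripts were scored as present where the mean of Ddx3y, Eif2s3y and Uty exceeded 1 CPM of the library total. That held in 11 of the 18 libraries. It held in 3 of 3 WT-Control libraries, 0 of 3 KO-Clonidine libraries and 2 of 3 in each other group. In bulk tissue, fewer cells of a type and less RNA per cell cannot be told apart.

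Because CREB acts through the cAMP response element, the start sites of the members were searched for it, and a few matches are shown here for members that are named in the comparisons below or lead their family. RefSeq promoter windows on GRCm38.p6, from 250 bases before to 50 bases after a start site, were at hand for 29 of the 39 members (53 windows). The full element TGACGTCA, which reads the same on both strands, stood in 2 windows (3.77%, against 1.79% of all 32851 windows), both of Prkar1a and both holding the same copy. Its shorter form, TGACG or, on the other strand, CGTCA, which the full element contains, stood in 20 windows of 16 members (37.7%, against 20.8% of all windows). Member windows were also richer in G and C, at 62.4% against 53.8%, which was not adjusted for. Each line below runs 5′ to 3′ on the gene's strand, with the matching letters in capitals. A match is a description of these letters and not of binding.
Prkar1a, chr11:109650889-109650918, plus strand, element from position -49: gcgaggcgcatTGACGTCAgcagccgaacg
Adcy7, chr8:88282952-88282981, plus strand, from position -28: tgatcatagagcCGTCAggggggtggggct
Pde4b, chr4:102421509-102421538, plus strand, from position -34: gatttggctgcaCGTCAattttctcatctg
Rapgef3, chr15:97767840-97767869, minus strand, from position -191: gcttgaacccacTGACGtagtctcgggtag
Rgs2, chr1:144004199-144004228, minus strand, from position -67: ttggggcgtggcTGACGcctccaggtcccg
Prkar1a encodes the main regulatory subunit of protein kinase A in these tumours, Adcy7 the most abundant cyclase, Pde4b a phosphodiesterase, Rapgef3 the exchange factor Epac1 and Rgs2 a regulator of G proteins. The lines show that the Prkar1a copy is the full palindrome, whereas the other 4 hold the shorter form alone. In the other Prkar1a window the same copy begins at position 39, after the start site of that window. No windows were at hand for 10 members, among them Gnai2, Rgs1, Arrb1 and Arrb2, and those of Creb1, Adcy4, Gnao1 and Rgs16 held neither form.

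To compare levels between genes, CPM was divided by transcript length in kilobases, and all values in this paragraph are mean levels on that scale over 18 libraries. The 4 most abundant members were G protein subunits, although others of that role were among the scarcest. Gnas (Gs alpha) stood at 268, Gnai2 (a Gi alpha) at 251.1, Gnb2 and Gnb1 (beta subunits) at 240.5 and 160.1, Gng2 (a gamma subunit) at 82.4 and Gnai3 (a Gi alpha) at 74.8. The place of Gng2 rests on a transcript length of 572 bases, the shortest among the members. In contrast, Gnao1, Gnai1 and Gnaz, alpha subunits best known from neurons and a few other cell types, stood at 0.813, 0.765 and 0.592. Other abundant members were Prkar1a at 127, Arrb2 (beta-arrestin 2) at 96.7 and Prkaca (a catalytic subunit of protein kinase A) at 67.7. Altogether 9 members lay above the 90th percentile of all tested genes. Among the cyclases, Adcy7, which is known from blood cells, led at 28.8, and Adcy5, known from heart and striatum, was last of all members at 0.116.

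**Figure D1:**
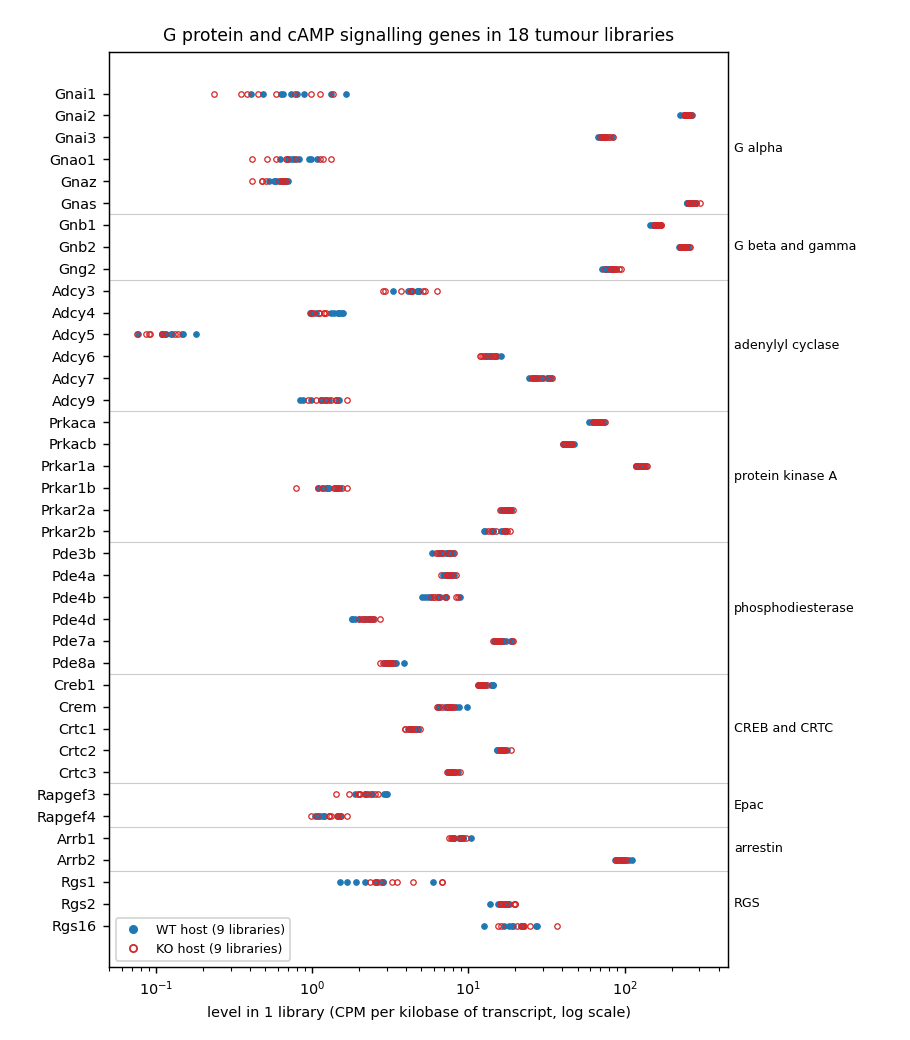
Level of each of the 39 genes in each of the 18 libraries, as CPM per kilobase of transcript on a log axis, ordered by role; filled blue points are WT hosts and open red points KO hosts. Gnas, Gnai2, Gnb2 and Gnb1 lie at the right, Adcy5 at the left, and the spread is widest for Gnai1 and Rgs1.

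Within each family 1 member usually held most of the transcript level, and its share moved little between libraries. Of the Gi, Go and Gz alpha subunits, Gnai2 made up 72.7 to 79.0% (median 76.5%) and Gnai3 20.5 to 26.6% (median 22.8%), while Gnai1, Gnao1 and Gnaz each stayed at or under 0.504%. Set against this inhibitory class, Gnas made up 42.7 to 49.3% of the alpha subunits compared. Adcy7 held 51.8 to 61.8% of the cyclase level, Adcy6, a cyclase inhibited by calcium, 24.6 to 30.7%, and Adcy3 6.48 to 12.7%. For protein kinase A, Prkaca held 58.2 to 64.3% of the catalytic level and Prkar1a 76.7 to 80.8% of the regulatory level, with medians of 11.1% for Prkar2a, 9.57% for Prkar2b and 0.827% for Prkar1b. Of the 6 phosphodiesterase members, Pde7a held 31.8 to 43.6%, the widest range of a leading member. Crtc2 held 55.1 to 60.3% of the CRTC coactivators, and Arrb2 90.5 to 92.7% of the beta-arrestins. These shares were compared by their ranges only, with no test.

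**Figure D2:**
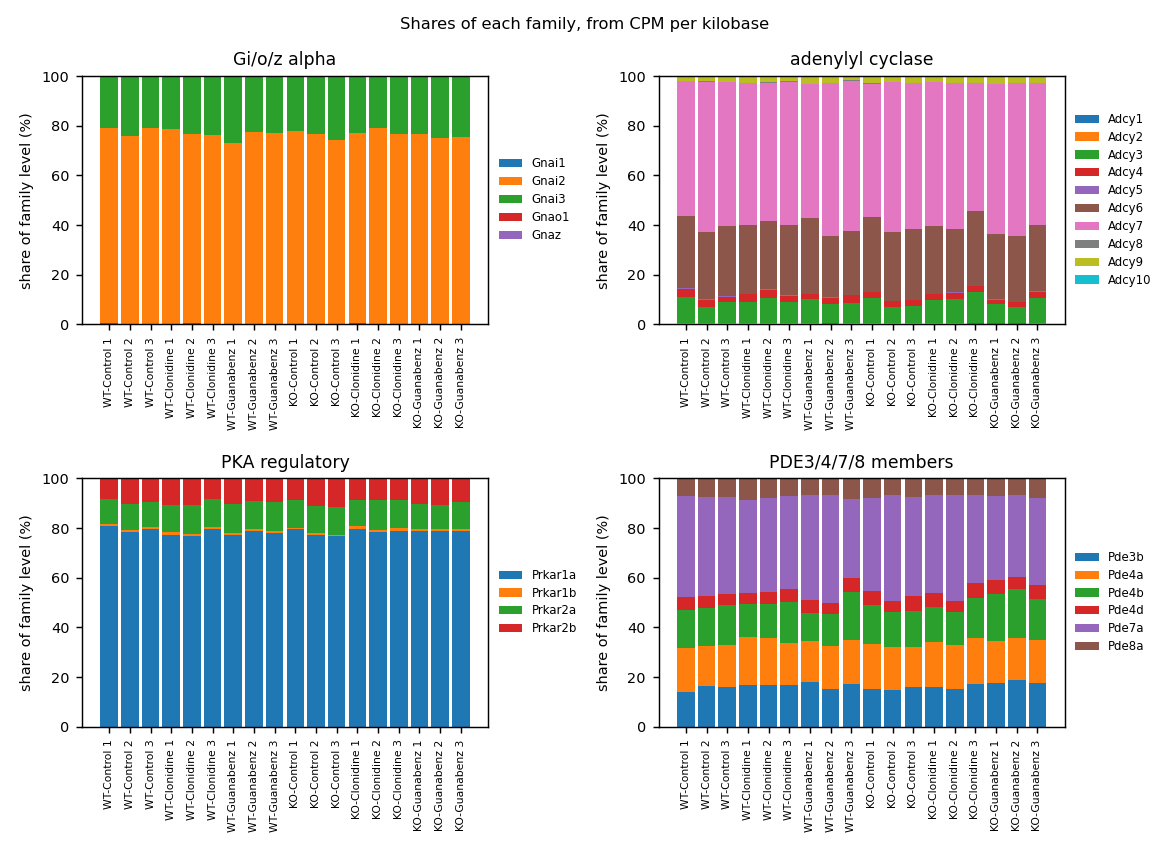
Stacked bars give, for each of the 18 libraries, the share (%) of the summed CPM per kilobase that each gene holds in 4 families: Gi, Go and Gz alpha subunits, adenylyl cyclases, regulatory subunits of protein kinase A and phosphodiesterases. Gnai2, Adcy7, Prkar1a and Pde7a lead their families in every library, with Gnai2 never under 72.7%.

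Across all 18 libraries the members varied slightly less than tested genes as a whole, although for 9 of 39 the highest library was over 2 times the lowest. The highest library was less than 1.5 times the lowest for 24 of 39 members (61.5%, against 51.1% of all tested genes), and the median coefficient of variation was 9.26% (10.8% over all tested genes). Gnas ranged from 773 to 939 CPM, with all 3 KO-Clonidine libraries above WT-Control and KO-Guanabenz, and Gnai2 from 499.8 to 599.8 CPM. Gnai2 had the narrowest range of group means, a ratio of 1.05 between WT-Control and WT-Guanabenz. Gnai3 (219 to 274 CPM), Gnb1 (454 to 532 CPM), Gnb2 (416 to 485 CPM) and Gng2 (40.9 to 54.0 CPM) each had a highest library at most 1.32 times the lowest. At least 1000 counts in every library stood behind 25 members, whereas Adcy5 had as few as 29 counts in a library.

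The widest ranges belonged to scarce members and to the RGS genes Rgs1 and Rgs16. Gnai1 ran from 0.733 to 5.19 CPM, with WT-Control 1 at the top and KO-Guanabenz 2 at the bottom. Gnao1 lay at 2.99, 4.16 and 2.62 CPM in WT-Control, 3.14, 2.96 and 4.05 CPM in WT-Clonidine, 3.23, 4.55 and 3.49 CPM in WT-Guanabenz, 2.89, 2.48 and 2.16 CPM in KO-Control, 3.35, 1.73 and 4.74 CPM in KO-Clonidine and 4.92, 5.61 and 2.91 CPM in KO-Guanabenz; 2 of 3 KO-Guanabenz libraries and KO-Clonidine 3 were the highest. Gnaz stayed between 1.44 and 2.47 CPM. Rgs1, an RGS protein of activated lymphocytes, lay at 8.35, 10.9 and 9.97 CPM in WT-Control, 5.74, 6.45 and 10.0 CPM in WT-Clonidine, 10.9, 7.35 and 22.9 CPM in WT-Guanabenz, 9.84, 26.0 and 12.4 CPM in KO-Control, 10.6, 9.02 and 25.8 CPM in KO-Clonidine and 13.3, 16.9 and 9.73 CPM in KO-Guanabenz. It was high in 3 single libraries of different groups, WT-Guanabenz 3, KO-Control 2 and KO-Clonidine 3, so that the group means, which differed up to 2.17-fold, rest largely on them. Rgs16, which is inducible in many cells, lay at 39.4, 50.7 and 52.3 CPM in WT-Control, 44.6, 64.5 and 42.4 CPM in WT-Clonidine, 45.1, 29.3 and 62.9 CPM in WT-Guanabenz, 36.0, 52.0 and 37.8 CPM in KO-Control, 53.3, 57.9 and 86.6 CPM in KO-Clonidine and 47.7, 52.2 and 50.8 CPM in KO-Guanabenz. KO-Clonidine 3 was its highest library and WT-Guanabenz 2 its lowest. Rgs2, a negative regulator of Gq and Gs signalling, was more even, from 41.6 to 59.9 CPM.

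Among the cyclases, Adcy7 lay at 145, 178 and 167 CPM in WT-Control, 168, 162 and 193 CPM in WT-Clonidine, 158, 201 and 188 CPM in WT-Guanabenz, 158, 157 and 152 CPM in KO-Control, 159, 159.9 and 152 CPM in KO-Clonidine and 196, 204 and 176 CPM in KO-Guanabenz, and the KO-Guanabenz libraries were above all 3 KO-Control libraries. Adcy6 ranged from 71.1 to 97.4 CPM and Adcy9, a widely expressed cyclase, from 3.93 to 7.90 CPM. Adcy5 had the widest spread of group means in the family and the fewest counts, at 1.03, 1.26 and 0.813 CPM in WT-Control, 1.02, 0.866 and 0.765 CPM in WT-Clonidine, 0.533, 0.763 and 0.890 CPM in WT-Guanabenz, 0.638, 0.795 and 0.969 CPM in KO-Control, 0.6003, 0.768 and 0.764 CPM in KO-Clonidine and 0.629, 0.530 and 0.922 CPM in KO-Guanabenz. For protein kinase A, Prkar1a lay at 436, 448 and 461 CPM in WT-Control, 426, 420.2 and 424 CPM in WT-Clonidine, 431, 427 and 405 CPM in WT-Guanabenz, 445, 405 and 422 CPM in KO-Control, 469.6, 409 and 444 CPM in KO-Clonidine and 453, 449 and 477 CPM in KO-Guanabenz; all its values fell within a 1.18-fold range. Prkar1b, a regulatory subunit best known from brain, lay at 2.85, 3.85 and 3.22 CPM in WT-Control, 3.77, 3.28 and 3.37 CPM in WT-Clonidine, 3.03, 3.95 and 3.29 CPM in WT-Guanabenz, 2.87, 3.63 and 2.08 CPM in KO-Control, 3.85, 3.06 and 4.39 CPM in KO-Clonidine and 3.76, 4.05 and 3.70 CPM in KO-Guanabenz, with KO-Control 3 the lowest library. Prkaca (108 to 138 CPM), Prkacb, the other catalytic gene (163 to 190.0 CPM), and the regulatory Prkar2a (78.7 to 95.9 CPM) stayed within a 1.28-fold range each, while Prkar2b went from 39.5 to 57.8 CPM.

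Of the phosphodiesterases, Pde7a, which is specific for cAMP, lay at 89.8, 93.7 and 85.8 CPM in WT-Control, 80.0, 86.3 and 89.7 CPM in WT-Clonidine, 100.3, 101 and 77.9 CPM in WT-Guanabenz, 83.5, 104 and 89.9 CPM in KO-Control, 85.5, 102 and 84.99 CPM in KO-Clonidine and 80.0, 77.2 and 81.1 CPM in KO-Guanabenz. Its 3 KO-Guanabenz libraries were below every KO-Control library. Pde4b, a cAMP-specific enzyme of leukocytes, lay at 15.7, 16.2 and 16.0 CPM in WT-Control, 13.0, 14.1 and 17.8 CPM in WT-Clonidine, 12.4, 13.5 and 21.8 CPM in WT-Guanabenz, 15.7, 15.8 and 14.9 CPM in KO-Control, 14.2, 14.9 and 17.7 CPM in KO-Clonidine and 20.6, 21.0 and 17.4 CPM in KO-Guanabenz, and WT-Guanabenz held both its lowest and its highest library. Pde4d (4.58 to 6.93 CPM) and Pde8a (10.3 to 14.7 CPM) were scarcer. Downstream of the kinase, Crtc2, a CREB coactivator, lay at 48.8, 45.3 and 45.4 CPM in WT-Control, 41.8, 42.1 and 45.5 CPM in WT-Clonidine, 46.2, 42.9 and 45.5 CPM in WT-Guanabenz, 43.5, 46.0 and 51.6 CPM in KO-Control, 44.9, 46.6 and 43.7 CPM in KO-Clonidine and 46.3, 47.3 and 44.3 CPM in KO-Guanabenz, a 1.24-fold range in which KO-Control 3 was the highest. Crtc3 and Crtc1 ran from 37.4 to 45.0 and 22.2 to 27.9 CPM, and Crem, a relative of CREB with activating and repressing forms, from 8.90 to 13.9 CPM. Arrb2 lay at 156, 156 and 164 CPM in WT-Control, 171, 153 and 158 CPM in WT-Clonidine, 139.8, 158 and 179.7 CPM in WT-Guanabenz, 148, 155 and 143 CPM in KO-Control, 155, 164 and 146 CPM in KO-Clonidine and 155, 160.4 and 142 CPM in KO-Guanabenz, with its lowest and highest libraries both in WT-Guanabenz.

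The first comparison was of clonidine with PBS in hosts that have the receptor. At an adjusted p under 0.05 over the 16125 tested genes, 0 of 39 members were called by edgeR, DESeq2 or limma-voom (edgeR called 0.0% of all genes); 1 member had an unadjusted p under 0.05 (12.9% of all genes), and 5 had groups that did not overlap (20.9% of all genes), so members stood apart at lower shares than the table as a whole. Creb1, the gene of the kinase's main transcription factor target, lay at 58.0, 62.6 and 61.5 CPM in WT-Control, 64.2, 69.4 and 72.4 CPM in WT-Clonidine, 72.4, 70.8 and 63.4 CPM in WT-Guanabenz, 58.7, 58.9 and 62.9 CPM in KO-Control, 60.9, 63.5 and 58.0 CPM in KO-Clonidine and 59.5, 60.3 and 65.7 CPM in KO-Guanabenz. All 3 WT-Clonidine libraries were above the 3 WT-Control libraries, at 68.7 ± 4.19 against 60.7 ± 2.39 CPM (SD, n = 3), 0.18 apart on the log2 scale (SE 0.07, adjusted p = 0.272 in edgeR). Pde4a, a cAMP-specific phosphodiesterase, was at 21.5, 21.0 and 20.5 CPM in WT-Control and 22.8, 23.7 and 22.7 CPM in WT-Clonidine, again without overlap, and differed by 0.14 (SE 0.07, adjusted p = 0.396 in edgeR). Prkar2a, Adcy9 and, in the lower direction, Prkar1a were the other members without overlap, at 0.11, 0.29 and -0.08. The median member was at 0.05 (25 of 39 above 0), against 0.00 for all tested genes. The 95% interval lay within 1.5-fold of no difference for 32 members (82.1%, against 66.3% of all tested genes). For Gnai2 it reached from 0.898-fold to 1.09-fold, for Gnas from 0.938-fold to 1.14-fold and for Adcy7 from 0.933-fold to 1.22-fold.

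Of 119 other genes of the pathway (further G proteins, cyclases, phosphodiesterases, kinase anchors, CREB partners, receptor kinases, RGS proteins, cAMP targets and Gs- or Gi-coupled receptors), 116 were tested in each comparison. With clonidine in WT hosts 0 were called by edgeR, 2 by DESeq2 and 9 by limma-voom. These tools called 0, 353 and 773 of all 16125 genes. An unadjusted p under 0.05 was found for 16 of the 116 (12.9% of all genes), 13 of them higher. Ptger4, a Gs-coupled prostaglandin E2 receptor, lay at 16.6, 19.0 and 18.0 CPM in WT-Control and 25.2, 20.7 and 21.5 CPM in WT-Clonidine, without overlap, and differed by 0.33 (SE 0.09, adjusted p = 0.163 in edgeR, 0.0416 in DESeq2 and 0.0414 in limma-voom). Creb3, a membrane-bound CREB relative, differed by -0.21 (SE 0.06, adjusted p = 0.193 in edgeR and 0.0360 in limma-voom). Of the 14 cAMP and CREB targets 2 were higher and 1 lower at an unadjusted p under 0.05. T cell markers stood beside these values: all 9 were higher at an unadjusted p under 0.05, with 0 called, and their sum was 34.1 to 45.2 CPM in WT-Clonidine against 18.9 to 28.1 CPM in WT-Control. Mast cell markers had the largest median difference of these lists (1.55), with 6 of 6 without overlap, 4 of 6 higher at an unadjusted p under 0.05, 0 called and sums of 15.2 to 24.7 CPM against 8.21 to 11.5 CPM. At the same unadjusted p, 3 of 6 leukocyte markers (sums of 1007 to 1146 CPM against 923 to 1095 CPM), 3 of 7 endothelial markers and 3 of 7 pericyte and smooth muscle markers were higher. Their part in the differences was not tested.

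**Figure D3:**
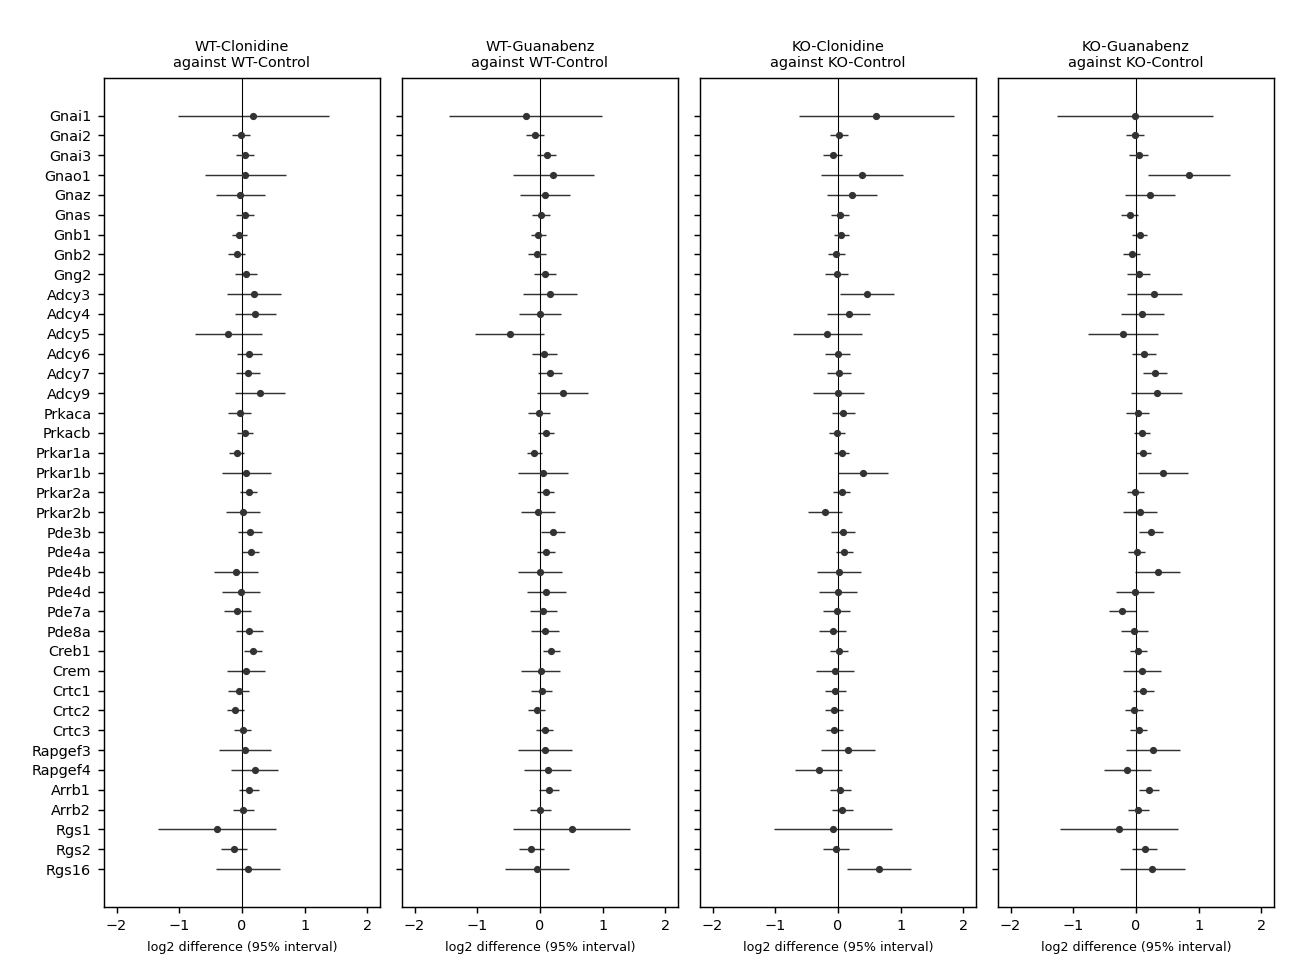
Log2 difference of each of the 39 genes with its 95% interval, for clonidine and guanabenz against control in WT and in KO hosts. Most points lie close to 0; the widest intervals belong to Gnai1 and Rgs1, and none of these genes passed an adjusted p of 0.05 in edgeR.

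Guanabenz in WT hosts gave similar numbers against the same 3 control libraries, which the comparisons share. By edgeR 0 of 39 members were called (0.0% of all genes), as by DESeq2 and limma-voom; 2 had an unadjusted p under 0.05 (11.4% of all genes) and 3 did not overlap (14.6% of all genes), again lower shares than in the whole table. Creb1 stood at 68.9 ± 4.79 CPM (SD, n = 3) with every library above WT-Control, 0.18 apart on the log2 scale (SE 0.07, adjusted p = 0.324 in edgeR), and 0.12 apart once each library's trend with transcript length was removed. Pde3b, the phosphodiesterase by which insulin lowers cAMP, lay at 38.2, 47.2 and 42.3 CPM in WT-Control, 43.4, 47.3 and 48.5 CPM in WT-Clonidine, 52.2, 43.3 and 51.7 CPM in WT-Guanabenz, 40.6, 44.2 and 44.2 CPM in KO-Control, 41.8, 44.8 and 50.1 CPM in KO-Clonidine and 50.4, 53.4 and 49.1 CPM in KO-Guanabenz. WT-Guanabenz 1 and 3 were its highest WT libraries and WT-Control 1 its lowest, and the difference was 0.20 (SE 0.09, adjusted p = 0.402 in edgeR), or 0.11 with the length trend removed and 0.13 without WT-Control 1. The median member was at 0.07, against 0.01 for all tested genes, and 33 members (84.6%, against 67.9%) had an interval within 1.5-fold. Of the other pathway genes 0 were called by any of the 3 tools and 11 had an unadjusted p under 0.05, led by Per1, a clock gene with a CREB-responsive promoter, at 34.6, 21.0 and 23.3 CPM in WT-Control and 46.4, 38.1 and 36.5 CPM in WT-Guanabenz. It did not overlap and differed by 0.62 (SE 0.21, adjusted p = 0.289 in edgeR), and Creb3 differed by -0.17.

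Clonidine and guanabenz share a dichlorophenyl ring, which clonidine joins to an imidazoline ring and guanabenz, through a hydrazone link, to a guanidine. They were compared in WT hosts as 1 pair, at unstated doses, so dose and compound cannot be told apart. No member was called by edgeR, DESeq2 or limma-voom, 0 had an unadjusted p under 0.05 (5.05% of all genes), and 0 of 39 lacked overlap (9.07% of all genes; 0.0% called). The 95% interval of the difference lay within 1.5-fold for 34 members (87.2%, against 68.3% of all tested genes). It was 0.946-fold to 1.15-fold for Gnai2, 0.930-fold to 1.13-fold for Gnas and 0.835-fold to 1.10-fold for Adcy7, clonidine over guanabenz. Rgs1 had the smallest p, with a difference of -0.91 (SE 0.45, adjusted p = 0.957 in edgeR) that was -0.30 without WT-Guanabenz 3. Adcy4, a cyclase of endothelium and other tissues, differed by 0.22 (SE 0.16), a value that moved to 0.05 without WT-Guanabenz 1 and to 0.39 without WT-Guanabenz 3; 6 of 7 endothelial markers were higher in WT-Clonidine at an unadjusted p under 0.05, and their part in it was not tested. Among the other pathway genes 0 were called by any of the 3 tools and 10 had an unadjusted p under 0.05, the smallest for Gnb3, a beta subunit at 0.0571 to 0.227 CPM in these groups (-1.37, SE 0.38), and Rgs5, an RGS gene of pericytes (0.41, SE 0.11), both at adjusted p = 0.957 in edgeR.

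In KO hosts, clonidine was compared with PBS. By edgeR, DESeq2 and limma-voom 0 of 39 members were called (edgeR called 0.0186% of all genes), 3 had an unadjusted p under 0.05 (5.52% of all genes) and 2 did not overlap (8.83% of all genes), shares near those of the whole table. Rgs16 was at 65.9 ± 18.1 CPM in KO-Clonidine against 41.9 ± 8.73 CPM in KO-Control (SD, n = 3), without overlap, 0.65 apart on the log2 scale (SE 0.24, adjusted p = 0.865 in edgeR), or 0.40 without KO-Clonidine 3. Adcy3, a cyclase also of olfactory cilia, lay at 21.2, 14.9 and 18.7 CPM in WT-Control, 19.1, 21.8 and 21.6 CPM in WT-Clonidine, 21.8, 19.9 and 19.5 CPM in WT-Guanabenz, 23.2, 12.9 and 13.3 CPM in KO-Control, 19.5, 19.8 and 28.4 CPM in KO-Clonidine and 19.4, 16.7 and 24.0 CPM in KO-Guanabenz. KO-Clonidine 3 was again the highest library and KO-Control 2 and 3 the lowest, and the difference of 0.46 (SE 0.21, adjusted p = 0.901 in edgeR) was 0.25 without KO-Clonidine 3 and 0.79 without KO-Control 1. For Prkar1b the difference was 0.40 (SE 0.19, adjusted p = 0.903 in edgeR), with 0.21 without KO-Control 3, 0.61 without KO-Control 2 and 0.17 when the KO-Guanabenz libraries were read as controls. KO-Clonidine 3 also held the most fibroblast and erythroid marker RNA of all libraries, 20870 and 1610 CPM, whose part in these values was not tested. The median member was at 0.01 and 29 members (74.4%, against 68.2% of all tested genes) had an interval within 1.5-fold. Adcy4 was the other member without overlap, at 0.17. Of the other pathway genes 0 were called by any of the 3 tools and 6 had an unadjusted p under 0.05, led by the kinase anchors Akap6 (-0.50, SE 0.17) and Akap7 (-0.26, SE 0.09), both with adjusted p over 0.8 in edgeR (0.814 and 0.865).

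The 3 libraries titled KO-Guanabenz, against KO-Control, showed more members apart than the other comparisons of single groups: 6 of 39 had an unadjusted p under 0.05 (15.1% of all genes) and 8 did not overlap (19.6% of all genes), shares close to those of the whole table. By edgeR 0 were called (0.0124% of all genes) and by limma-voom 0. Adcy7 stood at 192 ± 14.6 against 156 ± 3.29 CPM (SD, n = 3), 0.30 apart on the log2 scale (SE 0.09, adjusted p = 0.160 in edgeR), and was the 1 member that DESeq2 called (adjusted p = 0.0472). DESeq2 called 2.75% of all genes there, so 1 of 39 members is near its background. Gnao1, at 0.84 (SE 0.31, adjusted p = 0.224 in edgeR), had the largest difference but a level of only 4.48 ± 1.40 CPM. Prkar1b differed by 0.43 (SE 0.19, adjusted p = 0.299 in edgeR), or 0.24 without KO-Control 3. Pde3b was at 51.0 ± 2.22 against 43.0 ± 2.09 CPM, a difference of 0.25 (SE 0.09, adjusted p = 0.222 in edgeR) and of 0.14 with the length trend removed. Pde7a was the 1 lower member, at -0.22 (SE 0.10, adjusted p = 0.320 in edgeR), and at -0.13 without KO-Control 2. Arrb1 (beta-arrestin 1) lay at 44.0, 43.6 and 50.1 CPM in WT-Control, 50.4, 48.2 and 50.1 CPM in WT-Clonidine, 47.9, 56.1 and 48.0 CPM in WT-Guanabenz, 43.0, 42.1 and 43.4 CPM in KO-Control, 40.9, 48.4 and 42.5 CPM in KO-Clonidine and 52.3, 47.0 and 49.0 CPM in KO-Guanabenz, without overlap between the groups compared, and differed by 0.21 (SE 0.08, adjusted p = 0.232 in edgeR), or 0.12 with the length trend removed. Pde4b and Prkar1a, at 0.35 and 0.12, were the other members without overlap. The median member was at 0.06, with 27 of 39 above 0.

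Of the other pathway genes 0 were called by edgeR in that comparison, 2 by DESeq2 and 1 by limma-voom. These tools called 2, 443 and 343 of all 16125 genes. An unadjusted p under 0.05 was found for 12 of the 116 (15.1% of all genes), 11 of them higher. Akap11, an anchor of protein kinase A, lay at 43.9, 43.7 and 42.03 CPM in KO-Control and 61.1, 56.6 and 56.1 CPM in KO-Guanabenz and differed by 0.42 (SE 0.10, adjusted p = 0.0937 in edgeR, 0.00662 in DESeq2 and 0.0245 in limma-voom). Fosb, an immediate early gene with CREB sites, differed by 0.88 (SE 0.26, adjusted p = 0.148 in edgeR and 0.0299 in DESeq2). Both were apart from KO-Control in all 3 libraries. Cell markers differed beside them: 4 of 6 fibroblast markers were higher and 5 of 6 skeletal muscle markers lower at an unadjusted p under 0.05, with fibroblast sums of 17550 to 19160 CPM against 11660 to 16240 CPM and muscle sums of 36.7 to 98.5 CPM against 103 to 172 CPM. The 6 leukocyte markers summed to 1049 to 1118 CPM against 937 to 1059 CPM. Their part in the differences was not tested.

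**Figure D4:**
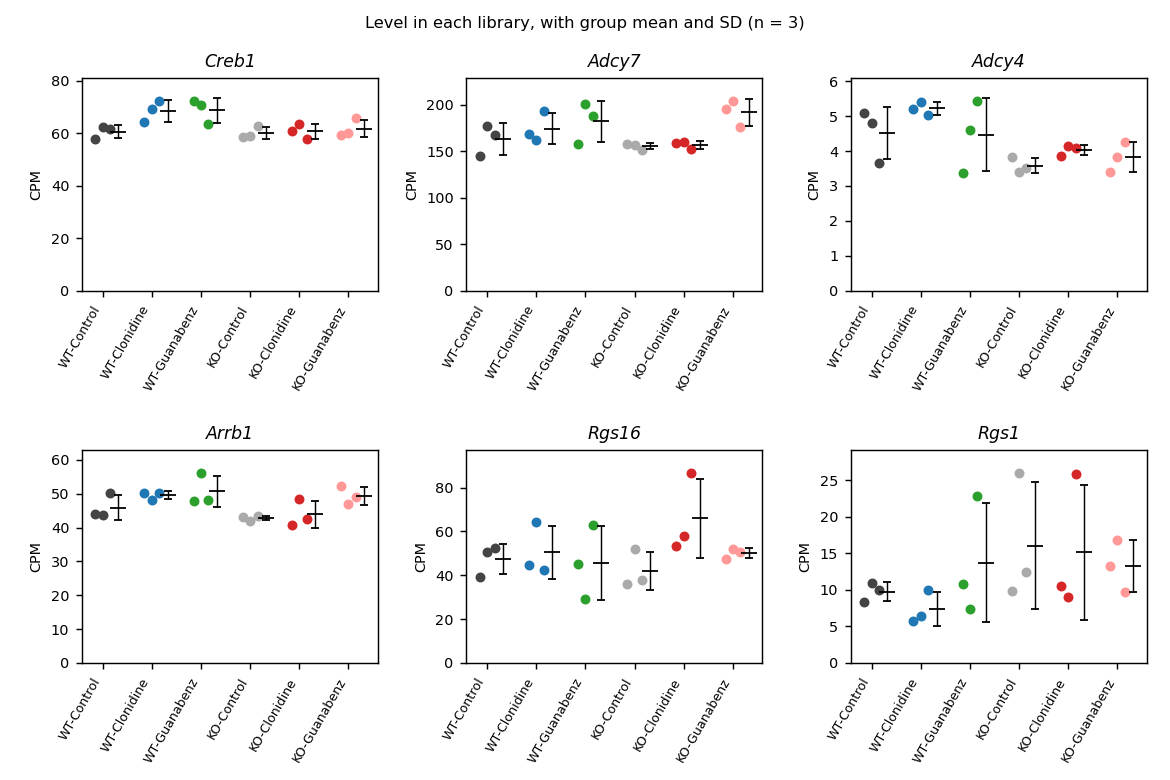
Level in each of the 18 libraries (CPM, linear axis from 0) of Creb1, Adcy7, Adcy4, Arrb1, Rgs16 and Rgs1 by group; points are libraries and the black mark is the group mean with its SD (n = 3). Creb1 is above all WT-Control values in WT-Clonidine and WT-Guanabenz, and Rgs1 has single high libraries in WT-Guanabenz, KO-Control and KO-Clonidine.

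Host genotype without drug, KO-Control against WT-Control, gave 0 called members by edgeR, DESeq2 and limma-voom (0.0062% of all genes in edgeR), 0 with an unadjusted p under 0.05 (3.68% of all genes) and 4 without overlap (8.33% of all genes). Adcy4 lay at 5.08, 4.80 and 3.66 CPM in WT-Control, 5.20, 5.42 and 5.05 CPM in WT-Clonidine, 3.36, 4.59 and 5.44 CPM in WT-Guanabenz, 3.82, 3.41 and 3.52 CPM in KO-Control, 3.85, 4.14 and 4.10 CPM in KO-Clonidine and 3.40, 3.83 and 4.27 CPM in KO-Guanabenz. Its KO-Control and WT-Control libraries overlapped, with a difference of -0.33 (SE 0.16, adjusted p = 1.00 when rounded, edgeR). Rapgef4 (Epac2), which is best known from endocrine cells and brain, lay at 4.79, 4.58 and 4.91 CPM in WT-Control, 4.27, 5.99 and 6.21 CPM in WT-Clonidine, 4.87, 4.48 and 6.15 CPM in WT-Guanabenz, 5.91, 6.82 and 5.44 CPM in KO-Control, 4.00, 6.25 and 4.39 CPM in KO-Clonidine and 6.03, 5.24 and 5.26 CPM in KO-Guanabenz, with KO-Control above WT-Control throughout and a difference of 0.35 (SE 0.18, adjusted p again 1.00 when rounded, edgeR). Gng2 was also without overlap, at 0.14, and Arrb1 and Arrb2 were so in the lower direction, at -0.10 and -0.09. The median member was at -0.02. The interval was within 1.5-fold for 27 members (69.23%, against 69.25% of all tested genes), among them Gnai2 (0.890-fold to 1.08-fold) and Gnas (0.964-fold to 1.18-fold). Of the other pathway genes 0 were called by any of the 3 tools and 1, Adra2a, had an unadjusted p under 0.05 (-1.20).

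Under clonidine, KO hosts were set against WT hosts. This comparison had the most called genes of the whole table, but by edgeR, DESeq2 and limma-voom 0 of them were among the 39 members (2.5% of all genes were called in edgeR). At an unadjusted p under 0.05 there were 4 members (19.6% of all genes), and 4 did not overlap (27.0% of all genes), both lower shares than in the whole table. Creb1 was at 60.8 ± 2.78 against 68.7 ± 4.19 CPM (SD, n = 3), without overlap, a difference of -0.18 (SE 0.07, adjusted p = 0.155 in edgeR). Adcy4 was at 4.03 ± 0.156 against 5.22 ± 0.187 CPM, also without overlap (-0.37, SE 0.16, adjusted p = 0.205 in edgeR). Arrb1 differed by -0.17 (SE 0.08, adjusted p = 0.231 in edgeR), with KO-Clonidine 2 within the WT-Clonidine range. Rgs1 differed by 1.04 (SE 0.45, adjusted p = 0.209 in edgeR), but by 0.41 without KO-Clonidine 3. Adcy7 and Pde8a were the other members without overlap, at -0.15 and -0.18. The median member was at -0.02, and 32 members (82.1%, against 64.6% of all tested genes) had an interval within 1.5-fold. WT-Clonidine also enters the first comparison, so the Creb1 values of these comparisons are not independent.

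Genes of the pathway outside the members did pass the test here: 6 of 116 were called by edgeR (2.5% of all genes), 2 higher and 4 lower in KO hosts, each without overlap. DESeq2 called 12 and limma-voom 17, against 1148 and 1266 of all 16125 genes. Of the 116, 24 had an unadjusted p under 0.05 (19.6% of all genes) and 26 did not overlap (27.0% of all genes). Ptger4 lay at 25.2, 20.7 and 21.5 CPM in WT-Clonidine and 16.9, 17.4 and 15.1 CPM in KO-Clonidine and fell by 0.45 (SE 0.09, adjusted p = 0.0253 in edgeR). Rgs5 lay at 115, 127 and 110.3 CPM in WT-Clonidine and 74.97, 80.8 and 89.5 CPM in KO-Clonidine and fell by 0.52 (SE 0.11, adjusted p = 0.0285 in edgeR). Fpr2, a Gi-coupled formyl peptide receptor of myeloid cells, was also lower (-0.96, SE 0.24, adjusted p = 0.0464 in edgeR, and 0.0616 with the replicate number as a block). Higher were Creb3 (0.26, SE 0.06, adjusted p = 0.0415 in edgeR) and Sik3, a salt-inducible kinase that keeps CRTC proteins out of the nucleus (0.24, SE 0.06, adjusted p = 0.0477 in edgeR, but 0.15 with total-count scaling). Of the 18 alternative settings, Ptger4 and Rgs5 lost the call in 8, Fpr2 in 12, and Creb3 and Sik3 in 13. Leaving out any 1 of the 6 libraries compared ended each of these 5 calls, except that Ptger4 stayed called without KO-Clonidine 2, and the adjusted p then ran from 0.0346 to 0.106 for Ptger4, 0.0598 to 0.104 for Rgs5, 0.0588 to 0.162 for Fpr2, 0.0513 to 0.158 for Creb3 and 0.0595 to 0.162 for Sik3 in edgeR. Y-linked transcripts were scored as present in 2 of 3 WT-Clonidine and 0 of 3 KO-Clonidine libraries. With a term for them Rgs5 alone stayed called. Markers moved too: 9 of 9 T cell markers (2 called) and 4 of 7 pericyte and smooth muscle markers, one of which is Rgs5 (2 called), were lower at an unadjusted p under 0.05, while 1 of those 7 was higher and 3 lay above 0. At the same unadjusted p, 3 of 6 leukocyte markers (1 called) and 3 of 7 endothelial markers were lower, and 4 of 4 tested erythroid markers were higher. T cell sums were 17.5 to 25.6 CPM in KO-Clonidine against 34.1 to 45.2 CPM in WT-Clonidine, pericyte sums 458 to 522 CPM against 459 to 502 CPM, and leukocyte sums 947 to 1020 CPM against 1007 to 1146 CPM. Their part in these changes was not tested.

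Averaged over the 3 treatments, KO against WT rests on 9 libraries each and includes the KO-Guanabenz libraries. edgeR called 0 of 39 members (0.416% of all genes) and limma-voom 0; 5 members had an unadjusted p under 0.05 (17.4% of all genes), and 0 lacked overlap (0.0558% of all genes), which is no more than the whole table gave. Adcy4 had the smallest adjusted p of all member tests. It ran from 3.36 to 5.44 CPM (median 5.05) in WT hosts and from 3.41 to 4.27 CPM (median 3.83) in KO hosts, and the difference was -0.31 (SE 0.09, adjusted p = 0.114 in edgeR and 0.0303 in DESeq2). It was the 1 member called by DESeq2, which called 3.73% of all genes. WT-Guanabenz 1 and WT-Control 3 were the only WT libraries below the highest KO library. Creb1 was at -0.11 (SE 0.04, adjusted p = 0.146 in edgeR), with medians of 64.2 CPM in WT and 60.3 CPM in KO hosts. Arrb1 was at -0.10 (SE 0.04, adjusted p = 0.250 in edgeR) and Rapgef3 at -0.25 (SE 0.12, adjusted p = 0.274 in edgeR). Rapgef3 lay at 11.1, 7.05 and 8.85 CPM in WT-Control, 8.98, 8.19 and 10.8 CPM in WT-Clonidine, 8.14, 11.4 and 8.99 CPM in WT-Guanabenz, 9.39, 6.48 and 5.29 CPM in KO-Control, 8.57, 7.38 and 7.61 CPM in KO-Clonidine and 9.82, 8.26 and 7.46 CPM in KO-Guanabenz. Its lowest library was KO-Control 3 and its highest WT-Guanabenz 2. Rgs1 was at 0.57 (SE 0.26, adjusted p = 0.265 in edgeR), or 0.36 without KO-Clonidine 3 and 0.89 without the KO-Guanabenz libraries. This comparison had the narrowest intervals, within 1.5-fold for 37 of 39 members (94.9%, against 80.6% of all tested genes). Gnai2 lay between 0.946-fold and 1.06-fold and Prkar1a between 0.976-fold and 1.08-fold. Of the other pathway genes Adra2a was the 1 call in edgeR (5 others were called by DESeq2 and 3, with Adra2a, by limma-voom), and 25 had an unadjusted p under 0.05. Adcy4 is expressed by endothelium, and 7 endothelial markers had 1 lower at an unadjusted p under 0.05 and 0 called, with a median of -0.03; their part in the value was not tested.

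Whether a drug acted differently in the host genotypes was tested as the WT effect less the KO effect. For clonidine 0 of 39 members were called by edgeR, DESeq2 or limma-voom (0.0% of all genes in edgeR), and 0 had an unadjusted p under 0.05 (8.94% of all genes). Rapgef4 (0.51, SE 0.25, adjusted p = 0.573 in edgeR) and Creb1 (0.16, SE 0.09, adjusted p = 0.637 in edgeR, and 0.25 with total-count scaling) had the smallest p. For guanabenz 0 members were called by the same 3 tools (0.0062% of all genes in edgeR) and 1 had an unadjusted p under 0.05 (5.71% of all genes). That member was Prkar1a, at -0.21 (SE 0.08, adjusted p = 0.866 in edgeR): it was lower with guanabenz in WT hosts by -0.09 and higher in KO hosts by 0.12, neither called. Rgs2 followed at -0.27 (SE 0.14, adjusted p = 0.875 in edgeR), or -0.17 without WT-Guanabenz 1. These tests are the least precise, with intervals within 1.5-fold for 26 and 27 of 39 members (66.7% and 69.2%, against 57.0% and 57.6% of all tested genes). Among the other pathway genes 0 were called in either test by any of the 3 tools, with 9 and 5 at an unadjusted p under 0.05. The smallest p belonged to Creb3 (-0.29, SE 0.09) and Grk3, a receptor kinase (0.89, SE 0.32), for clonidine. For guanabenz they were Gnb3 (1.47, SE 0.57) and Drd1, a Gs-coupled dopamine receptor (1.37, SE 0.60), both scarce, with no library above 0.294 CPM.

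Because the leukocyte marker level differed between libraries, each member was also set against the summed level of 6 leukocyte markers (Ptprc, Cd53, Laptm5, Coro1a, Itgb2 and Lcp2) over the 18 libraries. Of 39 relations, 1 passed the Benjamini-Hochberg adjustment, that of Adcy7, with Pearson's r of 0.74 (permutation p = 0.00052, adjusted 0.0203) and Spearman's rho of 0.75 (permutation p = 0.00047, adjusted 0.0183). Without WT-Control 1 and WT-Guanabenz 1, the libraries farthest from the median marker level, r was 0.69, and within groups, after the group means were removed, it was 0.66. By r 0 members passed without KO-Clonidine 3 or without KO-Guanabenz 2, and by rho 0 passed without KO-Clonidine 1. Rgs2 (r 0.63, adjusted permutation p = 0.0907), Arrb2 (r 0.60, adjusted permutation p = 0.104) and Arrb1 (r 0.58, adjusted permutation p = 0.125) came next, and Gnai1 had the most negative value (r -0.55, adjusted permutation p = 0.146). Within groups, r was 0.82 for Rgs2, 0.67 for Arrb2, 0.39 for Arrb1 and -0.68 for Gnai1, so Adcy7 did not stand apart there. With T cell or macrophage markers in place of the leukocyte markers 0 members passed, and with total-count scaling 4 passed. The marker sum and the members come from the same libraries and share their scaling.

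**Figure D5:**
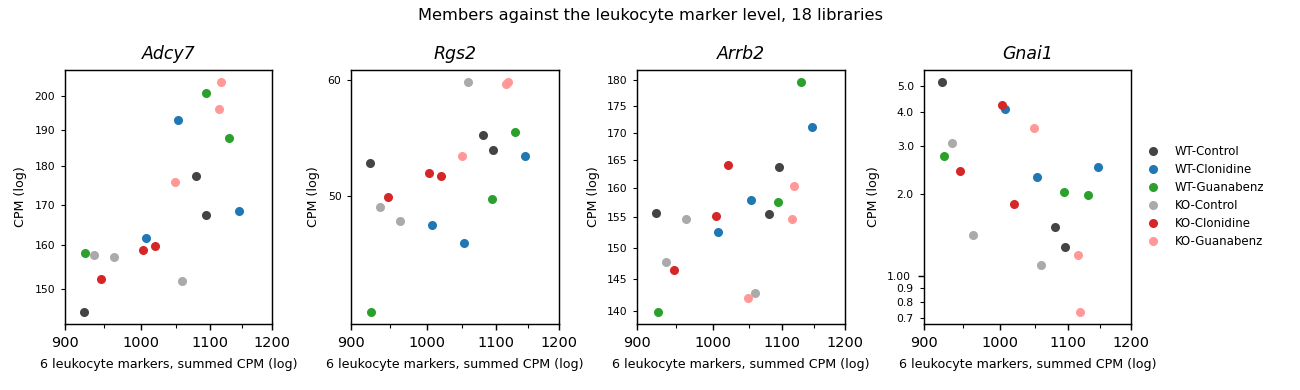
Level (CPM, log axis) of Adcy7, Rgs2, Arrb2 and Gnai1 against the summed CPM of 6 leukocyte markers (log axis) in the 18 libraries, coloured by group. Adcy7 is higher in libraries with more marker RNA (r 0.74), and Gnai1 lower (r -0.55, not past the adjustment).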

How the data were processed

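Libraries of bulk tumour RNA, 18 in 6 groups of 3, were analysed. The authors deposited estimated counts for each gene, for which the submitters' processing notes name Trim Galore 0.6.5, kallisto 0.46.0 and the build GRCm38. The values are whole numbers; how transcripts were summed to genes, and strandedness, are not given in the sources used here. kallisto divides reads shared by similar transcripts, so close family members are less certain. Of 21015 genes, 20994 matched a RefSeq symbol, and the 21 others held at most 0.022% of a library.

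Members and lists were chosen with earlier results of these data known. After filterByExpr (16125 genes) and TMM scaling, 1 edgeR model (edgeR 4.0.16, R 4.3.3) held a mean for each of the 6 groups, with 12 residual degrees of freedom. Tests were two-sided quasi-likelihood tests, adjusted by Benjamini-Hochberg over all tested genes in each of 10 comparisons, and the model was tested on simulated data. Intervals are 95%. Levels per kilobase use the median length of RefSeq-matched GENCODE transcripts. Correlations used log2(CPM + 0.5) and 100000 permutations.

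Named in a comparison were called members, then those at an unadjusted p under 0.05 (at most 8), or the 2 with the smallest p. Pathway genes were named if called, or the 2 with the smallest p below 0.05. For levels, the most abundant and the most variable member of each role was added. Any further member was singled out with its values in view. A called pathway gene of KO-Clonidine against WT-Clonidine is counted but not reported here.

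Results were recomputed with DESeq2 1.42.0, limma-voom 3.58.1, RLE or total-count scaling, other low-count filters, a replicate block, the compared groups alone, a Y-linked term, a transcript-length offset, other readings of KO-Guanabenz, and each library left out. Same-numbered libraries deviated together, with every r above 0.1, in 1 of 15 pairs of groups (WT-Clonidine and KO-Clonidine, r 0.106 to 0.273). The main tests, including those of this pair, were unpaired, and the numbers entered only the replicate block, a term over all 18 libraries.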

Additional observations from a re-analysis of the deposited data

How the results depend on the processing

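The count of called members was 0 under every alternative in the 10 comparisons, with the replicate block among them, except for 1 with DESeq2 in KO-Guanabenz against KO-Control (Adcy7) and 1 with DESeq2 in KO against WT over all treatments (Adcy4). Leaving out each library gave 0 to 0 called members throughout. Over the whole table edgeR, DESeq2 and limma-voom called 0, 353 and 773 genes for clonidine in WT hosts, 0, 173 and 6 for guanabenz in WT hosts, 3, 29 and 3 for clonidine in KO hosts, 2, 443 and 343 for guanabenz in KO hosts, 1, 17 and 1 for KO-Control against WT-Control, 403, 1148 and 1266 for KO-Clonidine against WT-Clonidine, 67, 601 and 362 for KO against WT, 0, 4 and 1 for clonidine against guanabenz, and 0, 33 and 2, and 1, 13 and 2, for the differences of the clonidine and guanabenz effects. The count of members following the leukocyte markers, 1 by r and 1 by rho, became 0 and 0 with T cell markers, 0 and 0 with macrophage and monocyte markers and 4 and 4 with total-count scaling, and ran from 0 to 3 when each library was left out, for r and for rho alike. The cause of these differences was not tested. Of the values for single named genes, 913 kept their direction and their side of the threshold, 68 lost a call, 8 gained one and 0 reversed. The replicate block changed no call of a named gene but that of Fpr2, given beside its result. Outside WT-Clonidine with KO-Clonidine, same-numbered libraries did not deviate together by the rule above. RLE scaling moved the median of all genes by at most 0.0045 and total-count scaling by at most 0.0866 on the log2 scale. Depth limits Adcy5 most, with 29 counts in its lowest library.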
